A study of Mus musculus with 11 samples.

Results

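The 10 cathepsin genes examined here were Ctsa, Ctsb, Ctsc, Ctsd, Ctsh, Ctsk, Ctsl, Ctss, Ctsw and Ctsz. They were chosen by name, with earlier results of these data known, and all 10 were found among the 25677 genes listed in the kidney RNA-seq data. Each library came from a kidney of a different female mouse, all aged 21 weeks. The normal control group (Ctr) held 3 C57BL/6J mice. The untreated lupus group (Lpr) held 4 MRL/lpr mice, an inbred strain that carries the lpr mutation of the death receptor gene Fas and develops lupus-like nephritis. The treated group (DNase) held 4 MRL/lpr mice given DNase I by daily intraperitoneal injection from week 17, an enzyme that cuts DNA and with it the DNA webs released by neutrophils. Because both MRL/lpr groups differ from Ctr in strain as well as in disease, strain and disease cannot be told apart in any comparison with Ctr. The labels name no vehicle injection for Lpr, so the injections and the enzyme cannot be told apart in DNase against Lpr.

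Cathepsins are proteases that work mainly in the acid interior of lysosomes. Most are cysteine proteases (Ctsb, Ctsc, Ctsh, Ctsk, Ctsl, Ctss, Ctsw, Ctsz), while Ctsd is an aspartic protease and Ctsa a serine carboxypeptidase. They are made as inactive precursors, are held in check by cystatins, and are known in the kidney for breaking down protein that the proximal tubule takes up and, in immune cells, for preparing antigen, activating granule proteases and degrading matrix.

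Values per kidney are CPM, read counts scaled to library size with TMM factors, which compare a gene between kidneys. Levels of different genes are compared only as FPKM, which is per length. Total counts ran from 33469858 to 38460873 per library. Fas gave 6.00 to 7.84 CPM in Ctr, 5.72 to 8.67 in Lpr and 5.76 to 6.90 in DNase, so its gene-level count overlapped between groups and is no check of the genotype labels. Markers of kidney tubule were abundant in every library, with a mean log2 CPM over 9 proximal tubule genes of 10.27 to 10.40 in Ctr, 9.35 to 10.06 in Lpr and 9.66 to 10.18 in DNase. The Lpr replicate 3 library stood apart, since its log2 values fell with gene length with a slope of -0.393, against -0.0433 to 0.0775 in the other libraries.

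Promoter sequences of 7 of the 10 genes were found in the RefSeq table for GRCm38.p6, the same assembly as the mm10 build named in the labels. The promoters below belong to Ctss, Ctsc and Ctsz, which were higher in both MRL/lpr groups, and to Ctsd, the most abundant cathepsin, which did not pass the test in any comparison. Each runs 5′ to 3′ from 250 bases before the start site to 50 after it, and capitals mark matches to any of 6 short motifs searched on both strands.
Ctss promoter, chr3:95526536-95526835, plus strand: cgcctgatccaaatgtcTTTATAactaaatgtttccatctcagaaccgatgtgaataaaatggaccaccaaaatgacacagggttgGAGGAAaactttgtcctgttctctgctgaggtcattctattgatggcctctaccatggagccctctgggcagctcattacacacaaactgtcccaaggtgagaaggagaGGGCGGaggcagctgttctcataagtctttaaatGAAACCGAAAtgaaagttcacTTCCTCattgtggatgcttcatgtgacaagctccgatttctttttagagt
Ctsc promoter, chr7:88277835-88278134, plus strand: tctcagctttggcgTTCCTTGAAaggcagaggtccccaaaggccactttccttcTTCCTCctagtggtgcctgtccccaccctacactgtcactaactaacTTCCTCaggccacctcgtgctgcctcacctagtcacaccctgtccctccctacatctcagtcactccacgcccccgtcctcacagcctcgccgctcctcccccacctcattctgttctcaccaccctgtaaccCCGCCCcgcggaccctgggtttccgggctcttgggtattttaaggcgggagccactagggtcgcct
Ctsz promoter, chr2:174438990-174439289, minus strand: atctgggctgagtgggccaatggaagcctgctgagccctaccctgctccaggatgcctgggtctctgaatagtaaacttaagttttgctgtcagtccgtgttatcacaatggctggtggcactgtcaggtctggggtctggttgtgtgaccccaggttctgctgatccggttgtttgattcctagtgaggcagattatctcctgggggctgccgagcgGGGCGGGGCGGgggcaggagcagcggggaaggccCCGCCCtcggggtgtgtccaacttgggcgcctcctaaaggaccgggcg
Ctsd promoter, chr7:142387778-142388077, minus strand: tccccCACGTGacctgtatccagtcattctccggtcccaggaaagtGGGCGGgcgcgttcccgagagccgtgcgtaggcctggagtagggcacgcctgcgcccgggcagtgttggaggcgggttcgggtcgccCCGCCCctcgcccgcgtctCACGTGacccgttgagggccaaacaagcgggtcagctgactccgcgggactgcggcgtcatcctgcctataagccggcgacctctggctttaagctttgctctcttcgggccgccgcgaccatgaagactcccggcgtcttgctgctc
The core of the interferon-stimulated response element, searched as GAAA followed after any 2 bases by a second GAAA, was found only in the Ctss promoter among the 8 promoters of these genes (Ctsa has 2 entries), 21 bases before the start, and 3.44% of 32851 RefSeq promoters held it. GAGGAA, the core bound by the myeloid factor PU.1, was found in Ctss, Ctsc and Ctsk, against 28.3% of all promoters. TTCNNNGAA, the interferon-gamma activated site, was found only in Ctsc among the 8, against 8.30% of all. CACGTG, the E-box that the lysosomal regulator TFEB can bind, was present 2 times each in Ctsd and Ctsa and also in Ctsl, against 7.15% of all. GGGCGG, the GC box, was found in Ctss, Ctsc, Ctsd and Ctsz, against 35.7% of all. TATAAA was found in Ctss, at position -233 from the start site, against 13.6% of all. In Ctsz the first 2 GC boxes overlap each other. The Ctss promoter had 44.0% GC and 5 CpG, the Ctsd promoter 67.3% GC and 33 CpG, and the medians over all promoters were 52.7% and 7. These matches describe the letters in the window.

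To examine how cathepsin mRNA in lupus kidneys differed from normal kidneys, Lpr was compared with Ctr. Ctss, Ctsw, Ctsc, Ctsz and Ctsb were higher in Lpr at an adjusted p under 0.05, from 14.7-fold for Ctss to 1.67-fold for Ctsb. This is 5 of 10 members, beside 7.27% of the 16074 genes tested that passed in that direction. None of the 10 was called lower, beside 2.92% of all genes. Ctss and Ctsw also passed a log2 fold change above 2, which 4.65% of all genes did in the higher direction. The fitted change was above 0 for all 10, and the median was 0.82 on the log2 scale, where 0.03 was the median over all genes tested. In 6 of the 10 (Ctsb, Ctsc, Ctsd, Ctss, Ctsw and Ctsz) all Lpr kidneys exceeded all Ctr kidneys, beside 14.4% of all genes.

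To examine the change with DNase I, DNase was compared with Lpr. By edgeR no cathepsin gene passed at an adjusted p under 0.05, beside 0% of the 15832 genes tested. Ctsb, Ctsd and Ctsl were lower at an unadjusted p under 0.05, which is 3 of 10 members beside 3.43% of all genes in that direction. DESeq2 called 0 of the 10 and 17 genes in all. All 10 fitted changes were below 0, with a median log2 fold change of -0.46, while 8377 of 15832 genes were below 0 with a median of -0.02. In 1 of the 10, Ctsl, every DNase kidney was below every Lpr kidney, beside 1.87% of all genes.

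DNase was also compared with Ctr, which shares its samples with the comparisons above, so the values are given side by side. Ctss, Ctsw, Ctsc, Ctsz and Ctsb were higher in DNase than in Ctr, 5 of 10 members beside 13.1% of 16100 genes, and Ctss and Ctsw passed with a log2 fold change above 2, beside 4.56%. Ctsl was lower, 1 of 10 beside 8.61% of genes. Every DNase kidney was above every Ctr kidney in 6 of the 10 (Ctsb, Ctsc, Ctsd, Ctss, Ctsw and Ctsz), beside 18.0% of all genes, and below every Ctr kidney in 1 (Ctsl), beside 13.9%. With all 3 groups in 1 fit, 3 members were called in place of 6, as the calls of Ctsb, Ctsl and Ctsz were lost (adjusted p = 0.189, 0.489 and 0.132, edgeR).

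**Figure D1:**
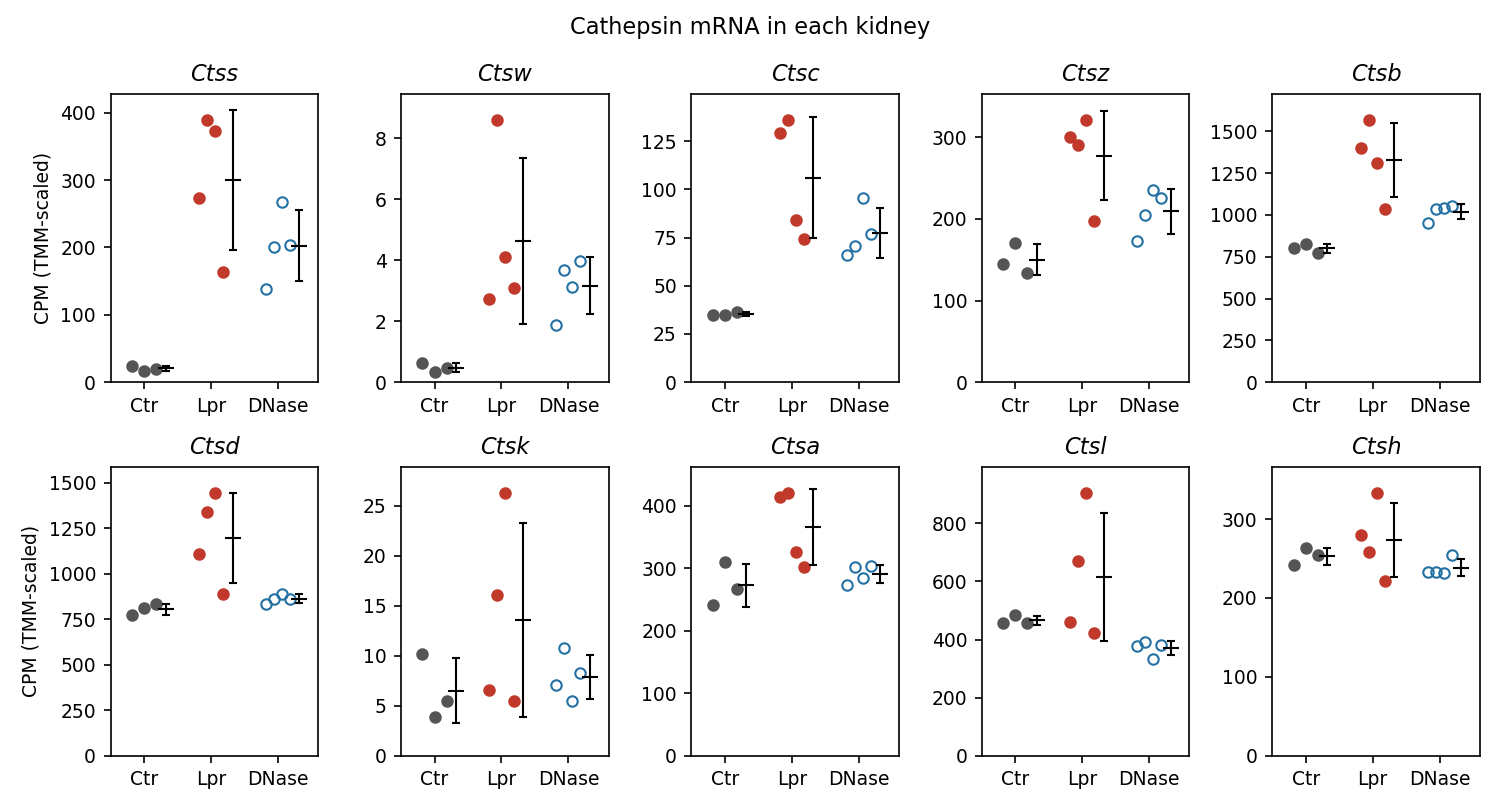
Each panel plots 1 cathepsin gene as TMM-scaled CPM (vertical axis, from 0) in each kidney of the Ctr (grey), Lpr (red) and DNase (open blue) groups, with the mean and SD as a black bar beside the points. Ctss, Ctsw, Ctsc, Ctsz and Ctsb separate both MRL/lpr groups from Ctr, while in Ctsl the DNase kidneys, at 334 to 391 CPM, lie below all others.

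**Figure D2:**
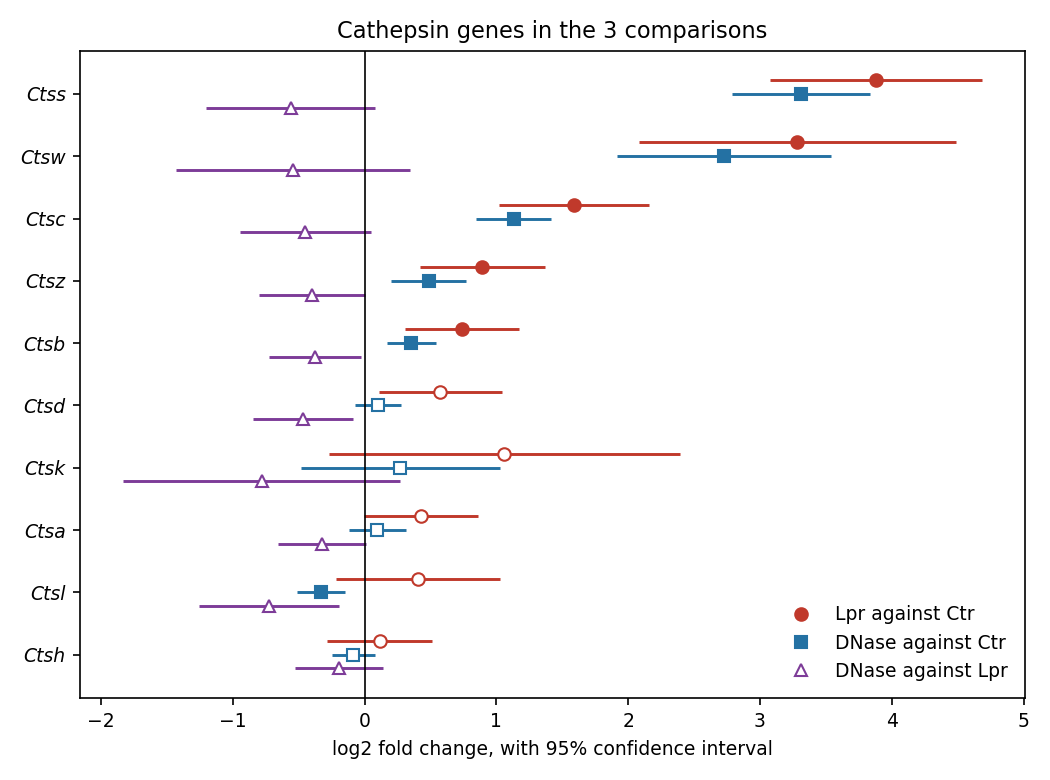
Fitted log2 fold change (horizontal axis) of each cathepsin gene in the 3 comparisons, with its 95% confidence interval as a line. Filled symbols passed an adjusted p under 0.05 by edgeR, open ones did not, and all triangles (DNase against Lpr) are open and lie between -0.78 and -0.19.

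Ctss encodes cathepsin S, a protease of antigen-presenting cells that removes the invariant chain from MHC class II. The gene lies on the plus strand of chromosome 3 from 95526786 to 95556403. It gave 24.5, 17.1 and 19.8 CPM in the Ctr kidneys. The Lpr kidneys gave 273, 389, 373 and 164 CPM, and the DNase kidneys 139, 201, 267 and 204 CPM. Every MRL/lpr kidney was several times above every Ctr kidney, while Lpr and DNase overlapped. Lpr (299.8 ± 104 CPM, SD, n = 4) was higher than Ctr (20.4 ± 3.77, n = 3) by a log2 fold change of 3.88 (SE 0.353, adjusted p = 0.000560 by edgeR's quasi-likelihood test). DNase (203 ± 52.4, n = 4) was above Ctr by 3.31 (SE 0.233, adjusted p = 1.77e-05 by edgeR). DNase against Lpr gave -0.56, with a 95% interval of -1.20 to 0.08 and an adjusted p of 0.854 by edgeR. That interval holds 0 and does not reach a fall of the size of the Lpr to Ctr difference.

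Ctsw encodes cathepsin W (lymphopain), a protease of cytotoxic T cells and natural killer cells, on the minus strand of chromosome 19 from 5465043 to 5468507. It was the least abundant member, with 10 to 23 counts per Ctr library. The CPM values were 0.617, 0.319 and 0.480 in Ctr, then 2.73, 8.61, 4.09 and 3.07 in Lpr, and 1.88, 3.70, 3.14 and 3.96 in DNase. All MRL/lpr kidneys were above all Ctr kidneys, and Lpr replicate 2 was far above the rest. Lpr against Ctr gave a log2 fold change of 3.28 (SE 0.529, adjusted p = 0.00527, edgeR) and DNase against Ctr 2.73 (SE 0.360, adjusted p = 0.000609, edgeR). DNase against Lpr gave -0.54, with an interval of -1.43 to 0.35, and without Lpr replicate 2 it was -0.06.

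Ctsc encodes cathepsin C (dipeptidyl peptidase I), which trims the granule serine proteases of cytotoxic lymphocytes, neutrophils and mast cells into their active form. It lies on the plus strand of chromosome 7 from 88278085 to 88310888. Ctr kidneys gave 35.0, 34.8 and 36.3 CPM, Lpr kidneys 129, 136, 84.3 and 74.3, and DNase kidneys 66.0, 70.6, 95.7 and 76.7. The Ctr values were almost the same, and Lpr replicates 3 and 4 lay within the range of DNase. Lpr was higher than Ctr by 1.59 on the log2 scale (SE 0.250, adjusted p = 0.00471, edgeR) and DNase by 1.13 (SE 0.126, adjusted p = 0.000220, edgeR). DNase against Lpr was -0.45 (95% interval -0.95 to 0.05).

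Ctsz encodes cathepsin Z (also called X), a carboxypeptidase of monocytes and macrophages, on the minus strand of chromosome 2 from 174427493 to 174439039. Ctr kidneys gave 145, 171 and 134 CPM, Lpr kidneys 301, 291, 321 and 198, and DNase kidneys 172, 205, 235 and 225. Both MRL/lpr groups were above Ctr in every kidney, but the lowest DNase kidney exceeded the highest Ctr kidney only narrowly. The log2 fold change was 0.89 for Lpr (SE 0.208, adjusted p = 0.0281, edgeR) and 0.49 for DNase against Ctr (SE 0.126, adjusted p = 0.0221, edgeR). DNase against Lpr was -0.40 (95% interval -0.80 to 0.00).

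Ctsb encodes cathepsin B, a broadly expressed endopeptidase and carboxydipeptidase, on the plus strand of chromosome 14 from 63122462 to 63145923. Ctr kidneys gave 800.5, 827 and 773 CPM, Lpr kidneys 1402, 1569, 1309 and 1036, and DNase kidneys 951, 1036, 1040.1 and 1052. The 3 groups were ordered Ctr, DNase, Lpr, with only Lpr replicate 4 falling inside the DNase range. Lpr against Ctr was 0.74 on the log2 scale (SE 0.190, adjusted p = 0.0431, edgeR), and DNase against Ctr was 0.35 (SE 0.0823, adjusted p = 0.0137, edgeR). DNase against Lpr was -0.37 (95% interval -0.72 to -0.03), with an adjusted p of 0.854 by edgeR. Of the 5 calls of Lpr against Ctr, those of Ctsb and Ctsz were lost with 1 kidney left out. Without any 1 of Ctr replicates 1, 2 or 3 or Lpr replicates 1 or 2, the adjusted p by edgeR was 0.101 to 0.174 for Ctsb and 0.0714 to 0.136 for Ctsz, and 3 members were called in place of 5.

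Ctsl encodes cathepsin L, an endopeptidase of tubule cells, podocytes and thymic epithelium, on the minus strand of chromosome 13 from 64359337 to 64370890. It gave 457, 484 and 456 CPM in Ctr. Lpr kidneys gave 460.2, 672, 904 and 424, and DNase kidneys 377, 391, 334 and 380.0. Lpr spread from below to well above Ctr, whereas all DNase kidneys lay below all others. Ctsl was the only member called lower in any comparison, at -0.33 on the log2 scale for DNase (370.3 ± 25.2 CPM) against Ctr (466 ± 16.0; SE 0.0812, adjusted p = 0.0184, edgeR). That call was lost without Ctr replicate 1 (adjusted p = 0.0512, edgeR) or Ctr replicate 2 (adjusted p = 0.0570, edgeR). DNase against Lpr was -0.72 (95% interval -1.25 to -0.20, adjusted p = 0.820 by edgeR), and -0.49 without Lpr replicate 3. Lpr against Ctr was 0.40 (95% interval -0.22 to 1.02, adjusted p = 0.465, edgeR), and 0.16 without Lpr replicate 3. The coefficient of variation of Ctsl was 36.0% in Lpr, 3.43% in Ctr and 6.82% in DNase.

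Ctsd encodes cathepsin D, the aspartic protease that starts the breakdown of many lysosomal substrates, on the minus strand of chromosome 7 from 142375911 to 142388038. Ctr kidneys gave 773, 811 and 832 CPM, Lpr kidneys 1111, 1339, 1443 and 889, and DNase kidneys 832, 862, 891 and 863. The lowest Lpr kidney was above the highest Ctr kidney, and the lowest DNase kidney and the highest Ctr kidney were almost equal. Lpr against Ctr was 0.57 (95% interval 0.11 to 1.04, adjusted p = 0.135, edgeR), DNase against Ctr 0.10 (adjusted p = 0.412, edgeR) and DNase against Lpr -0.46 (95% interval -0.84 to -0.08, adjusted p = 0.840, edgeR). With all 3 groups in 1 fit, Ctsd in Lpr against Ctr passed with an adjusted p of 0.0332 by edgeR.

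Ctsa encodes cathepsin A (protective protein), which also holds β-galactosidase and neuraminidase in a stable lysosomal complex, on the plus strand of chromosome 2 from 164832873 to 164841032. Its values were 242, 309 and 266 CPM in Ctr, 414, 419.7, 326 and 302 in Lpr, and 273, 302, 284 and 303 in DNase. Lpr replicates 1 to 3 were above all other kidneys, and Lpr replicate 4 lay among them. The log2 fold change was 0.43 in Lpr against Ctr (95% interval -0.00 to 0.86, adjusted p = 0.240, edgeR) and 0.10 in DNase against Ctr (adjusted p = 0.536, edgeR). It was -0.32 in DNase against Lpr (95% interval -0.66 to 0.01).

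Ctsh encodes cathepsin H, an aminopeptidase, on the plus strand of chromosome 9 from 90054152 to 90076089. Its values were 242, 263 and 254 CPM in Ctr, 280.3, 258, 333 and 221 in Lpr, and 233, 233, 232.0 and 254 in DNase. The 3 groups overlapped. Lpr against Ctr was 0.11 (95% interval -0.29 to 0.51), DNase against Ctr -0.08 and DNase against Lpr -0.19 (95% interval -0.52 to 0.14), and no call was made. With an offset for gene length, Lpr against Ctr turned to -0.02, and DNase against Ctr turned to 0.01 in the limma fits of FPKM.

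Ctsk encodes cathepsin K, a collagen-degrading protease best known from osteoclasts, on the plus strand of chromosome 3 from 95499256 to 95509362. It ends 17423 bases before Ctss on the same strand. Ctr kidneys gave 10.2, 3.86 and 5.49 CPM, Lpr kidneys 6.58, 16.0, 26.3 and 5.49, and DNase kidneys 7.09, 10.7, 5.42 and 8.31. Only Lpr replicates 2 and 3 were above the highest kidneys of the other groups. Lpr against Ctr was 1.06 (95% interval -0.27 to 2.39, adjusted p = 0.357, edgeR) and 0.53 without Lpr replicate 3. DNase against Lpr was -0.78 (95% interval -1.83 to 0.27) and -0.25 without Lpr replicate 3. Of 6 osteoclast markers, 3 were tested in Lpr against Ctr and 1 was higher, Acp5 (tartrate-resistant acid phosphatase), at 112 ± 17.7 CPM in Lpr and 62.9 ± 2.48 in Ctr (log2 fold change 0.83, adjusted p = 0.0145, edgeR). Acp5 and Calcr were higher in DNase against Ctr, by 0.64 and 0.91. Atp6v0d2 had 933 to 1833 counts per library and did not pass in either, while Dcstamp, Ocstamp and Oscar had at most 18, 8 and 7 counts in any library. Over the 8 MRL/lpr kidneys, the Pearson r of log2 CPM between Ctsk and its neighbour Ctss was 0.666, and 0.513 without Lpr replicate 3. In Lpr replicate 1, Ctss was high (273 CPM) while Ctsk was low (6.58 CPM).

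Lpr replicate 4 had the lowest Lpr value in 9 of the 10 genes, all but Ctsw. Without it, the fitted DNase against Lpr change of Ctss was -0.76 and that of Ctsl -0.87, and still 0 of the 10 passed with any 1 kidney left out. The labels name no pairing of mice across groups by replicate number, and the main fits used none.

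Per length, Ctsd was the most abundant cathepsin mRNA in every group, at a mean of 406 FPKM in Ctr, 616 in Lpr and 465 in DNase. In Ctr it was followed by Ctsb (163), Ctsh (146), Ctsl (126), Ctsz (100.3), Ctsa (71.4), Ctss (13.7), Ctsk (4.00), Ctsc (3.06) and Ctsw (0.306 FPKM), and of neighbours in this order only Ctsk and Ctsc overlapped between kidneys. In Lpr the order was Ctsd, Ctsb (278), Ctss (204), Ctsz (191), Ctsl (169), Ctsh (161), Ctsa (98.9), Ctsc (9.48), Ctsk (8.36) and Ctsw (3.09 FPKM). There the ranges from Ctsb through Ctsh overlapped neighbour by neighbour, as did Ctsc with Ctsk and Ctsk with Ctsw. In DNase it was Ctsd, Ctsb (222), Ctsz (150.2), Ctsh (147), Ctss (144), Ctsl (107), Ctsa (81.7), Ctsc (7.16), Ctsk (5.15) and Ctsw (2.18 FPKM). There Ctsz, Ctsh, Ctss and Ctsl overlapped neighbour by neighbour, and Ctsc overlapped Ctsk. The Ctr group thus placed Ctss at rank 7 of 10, while Lpr placed it at 3 and DNase at 5, and its level passed from the 75.2 percentile of expressed genes in Ctr to the 97.9 percentile in Lpr. The length used for Ctsc in the files was 11154 bases, against 5808 exon bases in the GENCODE annotation of GRCm38, and a longer length lowers the FPKM. For Ctsh it was 1670 against 4499 bases and for Ctsl 3576 against 6489, and a shorter length raises the FPKM. The ranks and shares of these genes, and the ratio of Ctss to Ctsl below, rest on the lengths in the files.

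The summed level of the 10 genes was 1014 to 1046 FPKM in Ctr, 1231 to 1412 in DNase, and 1683, 2047, 1915 and 1315 in the Lpr kidneys. In Ctr, Ctss held 1.06 to 1.63% of this sum, and in Lpr and DNase it held 8.84 to 13.5% and 8.10 to 13.6%. The mean share of Ctsh was 14.2% in Ctr, 9.41% in Lpr and 11.1% in DNase, and that of Ctsl was 12.2%, 9.62% and 8.07%. The share of Ctsb was 15.8%, 16.1% and 16.7%. The ratio of Ctss to Ctsl, both able to cut the invariant chain, was 0.0868 to 0.132 in Ctr, 0.953 to 1.46 in Lpr and 0.908 to 1.97 in DNase. The ratio was higher in all 8 MRL/lpr kidneys than in any Ctr kidney, and DNase replicate 3 had the highest.

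**Figure D3:**
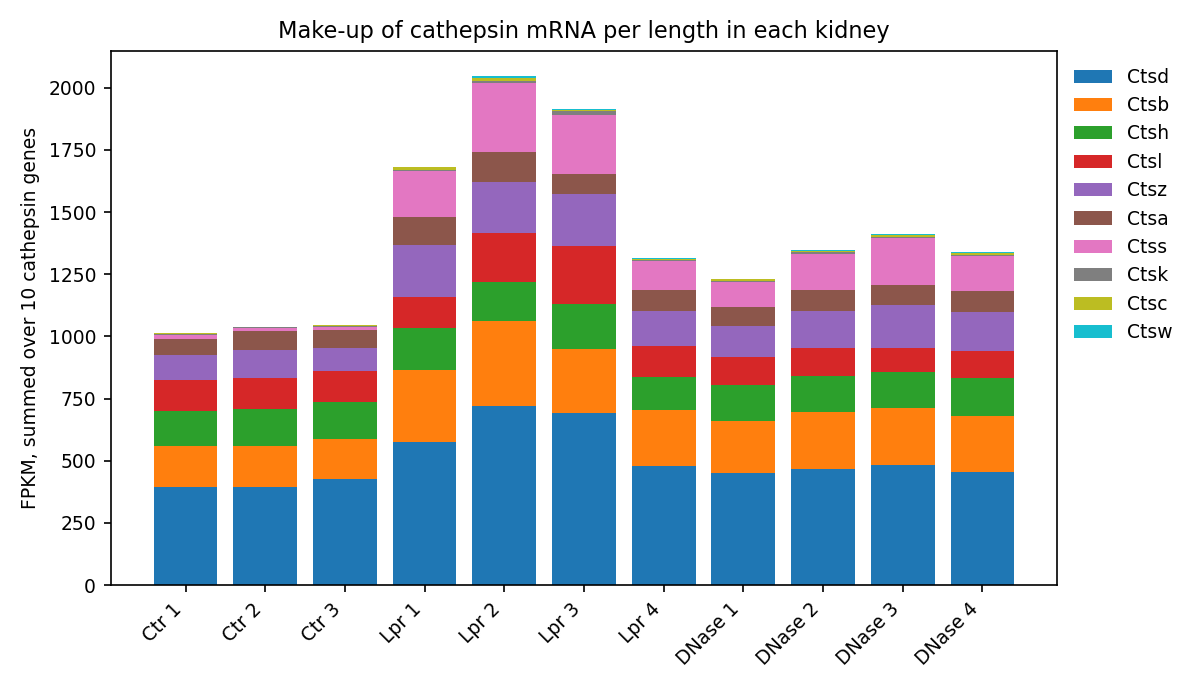
Stacked bars show the FPKM of the 10 cathepsin genes summed in each kidney (vertical axis, from 0), with 1 colour per gene. The Ctss segment is thin in the Ctr kidneys (1.06 to 1.63% of the bar) and broad in all Lpr and DNase kidneys (8.10 to 13.6%), and the bars of Lpr replicates 1 to 3 are the tallest.

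The partners and substrates of cathepsins were examined through gene lists. These lists and the cell type marker lists share some genes, which are counted in each. Among them are Lgmn, Scarb2, Cd68, Acp5, Gzmb, Gzmk, Col1a1 and Col3a1. Of 3 other cathepsins tested, Ctso was higher in Lpr (log2 fold change 0.60, adjusted p = 0.0350, edgeR). Of 7 cathepsin inhibitors tested, 3 were higher and 0 lower in Lpr against Ctr, with a median log2 fold change of 0.89, beside 7.27% of all genes called higher and 2.92% lower, which is also the background for the other lists in Lpr against Ctr. They were Cst7 (cystatin F, which is targeted to the endolysosomes of immune cells and inhibits Ctsc) at 3.93, Ctla2a, similar to the propeptide of Ctsl, at 1.31, and Serpinb6b at 1.09 on the log2 scale. Whether Serpinb6b inhibits a cathepsin was not examined here. Cst7 passed with an adjusted p of 0.000651 by edgeR, and its mean level was 0.254 CPM in Ctr, 3.92 in Lpr and 4.00 in DNase. In DNase against Ctr these 3 genes were again higher and 1, Cst6 (cystatin E/M), was lower, at 0.251 CPM in DNase and 0.780 in Ctr, beside 13.1% of all genes called higher and 8.61% lower. Of 11 genes for cathepsin activation and lysosomal sorting, 0 passed in Lpr against Ctr by edgeR. The log2 fold change there was 0.61 for Lgmn (legumain, which matures several cathepsins; adjusted p = 0.0857, edgeR) and 0.65 for Psap (prosaposin; adjusted p = 0.0846, edgeR).

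Of 35 other lysosomal hydrolases, 7 were higher and 3 lower in Lpr against Ctr (beside 7.27% and 2.92% of all genes), with a median log2 fold change of 0.17, beside 0.82 for the members. Hexa (hexosaminidase A) was higher by 1.06 and Arsa (arylsulfatase A) by 1.07, while Glb1 (β-galactosidase, a partner of Ctsa) was lower by a log2 fold change of -1.32 (adjusted p = 0.00213, edgeR). Glb1 was also lower in DNase against Ctr, at -1.51. Of 12 lysosomal membrane genes 3 were higher, and all 3 are genes of macrophages and other leukocytes, Slc11a1 at 3.26, Cd68 at 2.85 and Laptm5 at 2.64. In DNase against Ctr, 12 of the 35 hydrolases were higher and 6 lower, and 3 of 12 membrane genes were higher, beside 13.1% of all genes called higher and 8.61% lower.

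Of 13 MHC class II presentation genes, in whose pathway Ctss acts, 11 were higher in Lpr against Ctr and 12 in DNase against Ctr, with medians of 2.53 and 2.02 on the log2 scale. Cd74, the invariant chain that Ctss cuts, was at 317 ± 15.4 CPM in Ctr, 4757 ± 1169 in Lpr and 3285 ± 486 in DNase. It was higher in Lpr by 3.91 (SE 0.266, adjusted p = 0.000201, edgeR), beside 3.88 for Ctss. H2-DMb2 was higher by 6.06, H2-Eb2 by 5.62 and Ciita, the class II transactivator, by 3.65. In DNase against Lpr, all 13 fitted below 0 with a median of -0.52 and 0 passed. Of 8 serine proteases that Ctsc activates, 5 passed the low-count filter in Lpr against Ctr and 3 of these, the granzymes Gzmk (5.41), Gzmb (5.17) and Gzma (3.42), were higher. In DNase against Lpr, Gzmb was at 1.99 ± 0.446 CPM in DNase and 6.39 ± 5.84 in Lpr (log2 fold change -1.67, adjusted p = 0.844, edgeR). The Lpr kidneys gave 7.40, 14.2, 2.26 and 1.65 CPM of Gzmb, and replicates 3 and 4 lay within the DNase range of 1.58 to 2.55. The log2 fold change was -0.45 for Gzmk, -1.05 for Gzma and -2.14 for Prtn3 (adjusted p = 0.820, edgeR). Prtn3 was at a low level, with 0.422, 0.626, 2.23 and 0.285 CPM in the Lpr kidneys and 0.138 to 0.272 in DNase. Its highest value was in Lpr replicate 3, the library whose values fell with gene length. Of 6 elastin and collagen substrate genes, 0 passed in Lpr against Ctr by edgeR, with Col3a1 at 0.94 (adjusted p = 0.208, edgeR). In DNase against Lpr, 0 genes of any of these lists passed by edgeR.

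**Figure D4:**
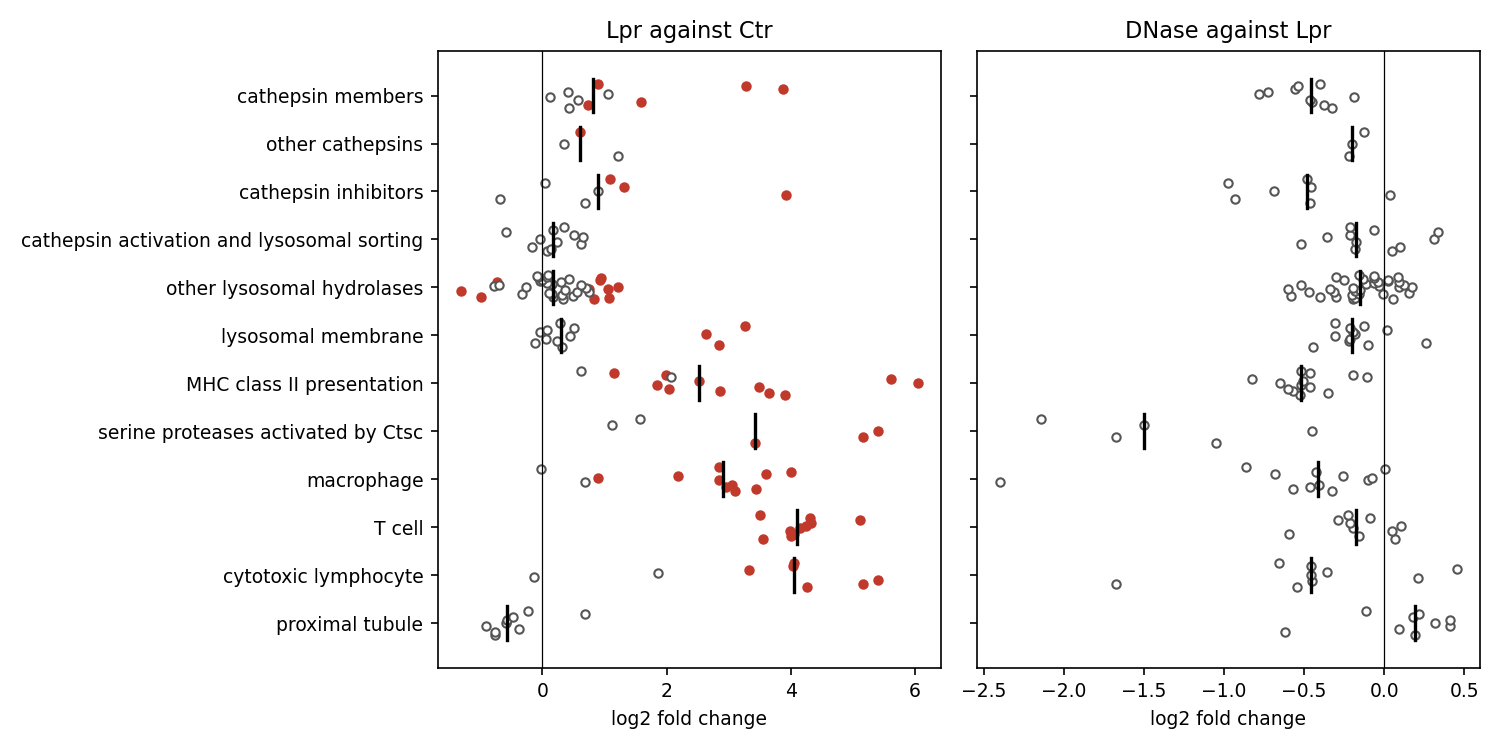
Each point is 1 tested gene of the list named at left, placed by its log2 fold change (horizontal axis) in Lpr against Ctr (left panel) and DNase against Lpr (right panel), with the list's median as a black bar. Filled red points passed an adjusted p under 0.05 by edgeR, and none did in the right panel. The median is 0.82 for the cathepsins, 0.17 for the other lysosomal hydrolases and 2.53 for MHC class II genes at left.

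Markers of several immune cell types were also higher in Lpr than in Ctr. In bulk tissue, more cells of a type and more RNA per cell cannot be told apart. Of 12 macrophage markers, 10 were higher in Lpr against Ctr, and their summed level was 250.3 to 320.0 CPM in Ctr, 1215 to 2372 in Lpr and 925 to 1728 in DNase. Of 10 T cell markers all 10 were higher, with sums of 5.81 to 8.53 CPM in Ctr, 89.3 to 203 in Lpr and 90.6 to 146 in DNase. Of 9 cytotoxic lymphocyte markers, 8 were tested and 6 were higher, with sums of 1.88 to 4.00, 29.5 to 77.6 and 20.9 to 34.4 CPM in the same order. Of 8 dendritic cell markers 4 were higher, with sums of 14.0 to 17.2, 24.0 to 61.3 and 38.3 to 66.0 CPM. Of 10 neutrophil markers, 7 were tested and 3 were higher, with sums of 4.02 to 12.0, 19.2 to 47.8 and 17.6 to 31.1 CPM, and the defining marker Ly6g was at 0 counts in Ctr and at most 3 in any library. Of 8 B and plasma cell markers, 7 were tested and 3 were higher, with sums of 29.7 to 54.1, 176 to 762 and 315 to 1064 CPM. Of 9 proximal tubule, 8 other nephron and 7 fibroblast markers, 0 passed in Lpr against Ctr by edgeR, with medians of -0.57, -0.43 and 0.18. In DNase against Lpr, 0 markers of any list passed by edgeR, and the median log2 fold change was -0.42 for macrophage, -0.18 for T cell, 0.01 for dendritic cell and 0.51 for B and plasma cell markers, beside -0.46 for the cathepsins. The part of these cells in the cathepsin values was not tested.

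The genes whose log2 CPM followed a cathepsin most closely over the 11 kidneys were searched among 13268 genes, as a description without a test. For Ctss they included C1qa (complement C1q of macrophages; r = 0.997) and Bcl2a1b (0.996), and over the 8 MRL/lpr kidneys alone r was 0.981 and 0.942. For Ctsw they were Cd44 (0.988), the T cell antigen Thy1 (0.985) and Rab8b (0.985). For Ctsc they were Phf11b (0.987), the interferon-induced factor Irf1 (0.983) and Lair1 (0.983). For Ctsz they were Cbfb (0.979), Ifi30 (a lysosomal thiol reductase of antigen processing; 0.970) and Ogfr (0.970), and for Ctsb Tubb6 (0.983), Hexa (0.983) and Xaf1 (0.981). The 11 kidneys hold both Ctr and MRL/lpr mice, so r over them includes the difference between these groups.

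Within the 8 MRL/lpr kidneys, 50 relations of cathepsin genes with 5 marker lists were computed, and 0 passed an adjusted p of 0.05 by an exact two-sided permutation test. The 8 hold both Lpr and DNase kidneys, so r includes any difference between these groups, and the permutation took no account of group. The 2 farthest kidneys named below are those whose marker mean lay farthest from the median. The highest with macrophage markers was Ctsc (Pearson r = 0.861, exact permutation p = 0.00332, adjusted p = 0.0918, Spearman rho = 0.714, exact permutation p = 0.0576, adjusted p = 0.692), and r was 0.727 without the 2 farthest kidneys. That place depended on Lpr replicate 3, the library whose values fell with gene length. Without it, r with macrophage markers was 0.905 for Ctsb, 0.899 for Ctsd, 0.871 for Ctsa and 0.867 for Ctsc. Ctsc was also the highest with cytotoxic lymphocyte markers (r = 0.831, exact permutation p = 0.00367, adjusted p = 0.0918, rho = 0.810), and r was 0.657 without the 2 farthest there. Without Lpr replicate 3, r with these markers was 0.863 for Ctsc, below Ctss at 0.948. With T cell markers it was Ctsw (r = 0.826, exact permutation p = 0.0205, adjusted p = 0.205), and r was 0.482 without the 2 farthest there. The r largest in size was 0.665 with fibroblast markers (Ctsl, exact permutation p = 0.0575, adjusted p = 0.221). With proximal tubule markers it was -0.758 (Ctsd, exact permutation p = 0.0306, adjusted p = 0.221). Without the 2 farthest kidneys there, r was 0.557 for Ctsl and 0.0974 for Ctsd. For Ctss and macrophage markers r was 0.631 (exact permutation p = 0.0901, adjusted p = 0.322) and rho 0.476 (exact permutation p = 0.243, adjusted p = 0.748). Without the 2 farthest kidneys, DNase replicate 1 and Lpr replicate 2, r was -0.126, and without Lpr replicate 3 it was 0.865. The value of r thus depended on these kidneys. Leaving out the 2 farthest also narrows the range of marker values, which in itself tends to weaken r. Each group alone holds too few kidneys for a correlation.

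The reading frames of the 10 genes had 0 near-identical copies (a match of 95% identity or more spanning 70% or more of the frame), and the nearest were Gm14032 for Ctsb (87.3% identity) and Gm5398 for Ctsh (84.7%). Exons overlap other genes on the opposite strand for Ctsb (Fdft1, 12.8% of its exon bases), Ctsa (Pltp, 10.5%) and Ctsl (the antisense gene Gm47123, 26.8%). On the same strand they overlap for Ctsd (Gm49369, 34.4%) and Ctsl (the pseudogene Gm49230, 6.09%). Gm47123, Gm49369 and Gm49230 were not among the genes listed. The strand setting of the counting is not given in the sources used here, so reads in the opposite-strand stretches cannot be told apart between the genes. Reads in the same-strand stretches cannot be told apart by strand at all.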

How the data were processed

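Kidney RNA was extracted with TRIzol and libraries were made with the VAHTS Universal V6 kit, 1 per mouse. The authors deposited unnormalized integer counts per gene, and the labels name fastp, HTSeq, DESeq2, R 3.2.0 and mm10. The aligner and annotation are not given in the sources used here. They also deposited FPKM values, which by the authors' calculation are the counts divided by library total and gene length, and served for levels between genes. All sample columns were used. The members and gene lists were chosen with earlier results of these data known.

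Counts of the 2 groups compared were filtered with filterByExpr, scaled by TMM and tested with edgeR 4.0.16 (quasi-likelihood test, R 4.3.3), with Benjamini-Hochberg adjustment over all genes tested and a threshold of 0.05. CPM and log2 CPM (prior count 2) use TMM over all 11 libraries. Standard errors and 95% confidence intervals come from the fitted coefficient. All 10 members are named in every comparison. From each list at most 4 genes are named by comparison, the called ones with the largest change and a mean of at least 1 CPM, or the highest by mean CPM where none passed. Cst6 and the osteoclast markers other than Acp5 fall outside this rule in comparisons with Ctr and were named after their values were seen. Likeness names the 3 highest Pearson r among genes of at least 1 CPM, of which 1 is not reported here. Alternatives were DESeq2 1.42.0, RLE or upper quartile scaling, a robust fit, no filter, a fit of all 3 groups, a replicate block, limma 3.58.1 on log2(FPKM + 1) and log2(FPKM + 0.1), leaving out each kidney, and an offset for gene length, chosen after seeing the data. The fits were also run on simulated counts with planted log2 fold changes of 2, larger than any member change in DNase against Lpr. Smaller changes were not simulated. Promoters are RefSeq, GRCm38.p6, and gene positions are GENCODE. Replicates are separate mice.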

Additional observations from a re-analysis of the deposited data

Results flagged for a closer look

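Of the 20 groups of 4 kidneys tested (10 genes in Lpr and in DNase), 2 had a kidney far from the other 3 by Dixon's criterion, and chance alone gives about 1 in 20. Ctsb in DNase replicate 1 was 950.8 CPM, with the other DNase kidneys at 1036 to 1052. Ctsh in DNase replicate 4 was 254.1 CPM, with the others at 232.0 to 233.3.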

How the results depend on the processing

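Of 110 cathepsin values per comparison (10 genes under 11 settings other than leaving out a kidney), 105 in Lpr against Ctr, 110 in DNase against Lpr and 101 in DNase against Ctr kept their direction and their side of the threshold. In Lpr against Ctr, 1639 genes were called, 2515 with DESeq2, 2555 with all 3 groups in 1 fit, and 852 (without Ctr replicate 1; 911 without Ctr replicate 2 and 915 without Ctr replicate 3) to 2824 (without Lpr replicate 3) with 1 kidney left out. The members called there were 5, and 3 to 5 with 1 kidney left out. Ctsb in Lpr against Ctr lost its call with no filter (adjusted p = 0.0618, edgeR) with the replicate block (0.110, edgeR) and on log2(FPKM + 1) without the filter (0.0548, limma). In DNase against Lpr, 0 genes were called by edgeR and 17 by DESeq2, and 0 members under every setting. In DNase against Ctr, 6 members were called, 3 with all 3 groups in 1 fit, 3 with the replicate block, and 3 (without Ctr replicate 1) to 6 with 1 kidney left out. The calls lost there were those of Ctsb, Ctsl and Ctsz, with 1 kidney left out all 3 without Ctr replicate 1, Ctsl without Ctr replicate 2, Ctsb and Ctsz without Ctr replicate 3, and Ctsz without DNase replicate 3 or 4. All genes called there were 3493, 1889 with all 3 groups and 1869 with the replicate block. Members past a log2 fold change of 2 were 2 in Lpr against Ctr and in DNase against Ctr, and 1 in each on log2(FPKM + 1), with the filter and without it. Ctsh reversed to -0.024 with the gene length offset in Lpr against Ctr, and to 0.0103 in DNase against Ctr in the 3 limma fits. The cause was not tested. The deviations of same-numbered kidneys correlated from -0.217 to 0.0761 in Lpr against Ctr, -0.108 to 0.159 in DNase against Lpr and -0.277 to -0.0707 in DNase against Ctr. The labels name no pairing by number, and a batch shared by number was not tested. With 3 or 4 mice per group, a change that missed the threshold was not shown to be absent, and the DNase I dose and the strandedness are not given in the sources used here.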
